A study of Mus musculus with 14 samples.

Results

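C1q-negative monocytes were a rare population of white nodules of Eif3e cKO mice, with 145 cells among 77442 deposited cells, of which 75548 passed the limit on mitochondrial UMIs. Over all mice they were outnumbered by C1q-positive macrophages (573 cells) and neutrophils (2812 cells). A cell was counted as a monocyte when its mitochondrial (mt-) UMIs were at most 10%, it held at least 2 UMIs of Lyz2 and at least 1 UMI of Csf1r, and it held no UMI of C1qa, C1qb, C1qc, Csf3r, Retnlg, Cd3d, Cd3e, Cd3g, Cd79a, Cd79b or Ms4a1. A UMI stands for 1 captured RNA molecule. The cells were thus chosen by the measured UMIs of these genes, whose values are given only as a description.

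The nodules came from 7 mice that carry floxed Eif3e alleles, the gene of a subunit of translation initiation factor eIF3, and Cγ1-Cre, a Cre recombinase driven from the Ighg1 locus, which is active in B cells that switch to IgG1. Each gave 1 RNA library of single cells and 1 library of rearranged antigen receptor (V(D)J) transcripts. The B cell receptor (BCR) was profiled in 5 mice, whose nodules were taken from the liver of mouse 27 at 12 mo of age, the lung of mouse 29 at 12 mo, the spleen of mouse 31 at 13 mo, the thymus of mouse 33 at 16 mo and both lung and thymus of mouse 34 at 9 mo. The T cell receptor (TCR) was profiled in 2 mice, with nodules from the liver of mouse 30 at 14 mo and the spleen of mouse 32 at 12 mo. All 7 mice carried both the floxed allele and the Cre, and the study lists a Rosa26 YFP reporter allele besides for mice 29, 31, 32 and 34. The tumor of mouse 27 is described as having grown after transfer into a Rag2-/- recipient, so its myeloid cells can be those of the recipient. Each mouse gave 1 nodule sample, no nodule of a control genotype was analysed here, and organ, age and receptor cannot be told apart between mice. Dead cells were removed before capture.

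Monocytes are made in the bone marrow, circulate in the blood and enter tissues. In mice, classical monocytes carry much Ly6C and the chemokine receptor CCR2, whereas nonclassical monocytes patrol the vessel wall, depend on Nr4a1 and express Cx3cr1, Ace and Treml4. After entry into a tissue, monocytes can raise MHC class II or turn into macrophages, many of which produce the complement component C1q.

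The 145 monocytes held 1423154 UMIs, with a lowest of 600, a median of 7525 and a highest of 49943 UMIs per cell and a median of 2338 genes. The median per mouse was lowest in mouse 27 (4812.5 UMIs), between 5353 and 8280 in mice 29, 31, 33, 34 and 30, and highest in mouse 32 (15149 UMIs). Mouse 34 gave 1 cell. Between libraries, 3307 of 74042 different barcodes were shared, among them those of 12 monocytes, none of which was a monocyte in the other library. A V(D)J call was absent from all 145 monocytes (a count of 0 leaves room for 2.07%), while 2.59% to 40.4% of all cells of a library had one, and 4 monocytes held a UMI of a TCR constant gene. The gate had already left out cells with a UMI of Cd3 genes, Cd79a, Cd79b or Ms4a1, so this absence is a description and no independent check. With 1 receptor profiled per mouse, T cells of BCR mice and B cells of TCR mice could not have a call.

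Of the 4 monocyte genes that the gate did not use, 3 were detected in most of the 145 pooled cells and Ear2 in few. Chil3, a secreted chitinase-like protein, was detected in 117 monocytes, Ly6c2, the gene of the classical marker Ly6C, in 85, Ccr2 in 78 and Ear2, a ribonuclease gene, in 18. Mice 29 and 32 gave 70 and 31 of the 145 cells and weigh most in these counts. In mice 27, 31, 33, 34 and 30, Ly6c2 was found in 3 of 14, 6 of 16, 3 of 6, 0 of 1 and 3 of 7 cells. In the same order, Ccr2 was found in 3, 8, 3, 0 and 5 of these cells and Chil3 in 5, 8, 4, 1 and 5. Ly6c2 and Chil3 were found together in 81 cells, and 19 cells held no UMI of these 4 genes. At least 1 UMI of the classical monocyte list (11 genes) was found in 139 cells and of the nonclassical list (12 genes) in 124. The classical UMIs outnumbered the nonclassical ones in 130 cells and the reverse held in 13. Chil3 belongs to the classical list, however, and 36 cells held Chil3 without Ly6c2. In some of these Chil3 was nearly the whole classical sum, with 275 of 276 UMIs in 1 cell of mouse 29. In the cell of mouse 34 it was 74 of 79.

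Some defining genes of other cell types were at 0, while the lists they belong to were not. The resident macrophage genes Vsig4, Timd4, Cd163, Cd5l, Clec4f and Slc40a1 held no UMI in any of the 145 cells, and neither did the alveolar macrophage genes Ear1, Fabp1 and Marco, the neutrophil genes Ly6g and Mmp9 or the dendritic cell genes Fscn1 and Siglech. Summed over the whole list, however, the 19 resident macrophage genes stood at 320 to 8033 CPM, with a UMI in 131 cells, and the 11 neutrophil genes at 374 to 9227 CPM, with a UMI in 115 cells. The 10 alveolar macrophage genes stood at 21.3 to 1681 CPM, with a UMI in 53 cells. Mouse 34 was highest for them and mouse 29 next, at 623 CPM. These sums per mouse are in UMIs per 1000000 UMIs of the summed monocytes (CPM). The other lists ranged from 0 to 584 for the 8 T cell genes, from 0 to 167 for the 10 B cell genes, from 0 to 39.1 for the 5 natural killer cell genes, from 0 to 17.4 for the 4 erythroid genes, from 0 to 140 for the 5 mast cell and basophil genes and from 0 to 407 for the 6 genes of parenchyma and stroma. The highest T cell value was that of mouse 29, where Il7r, the interleukin 7 receptor, stood at 571 CPM. The dendritic cell list stood at 0 to 425 CPM, highest in mouse 30, where 22 of its 23 UMIs were in 1 of the 7 cells, among them all UMIs of Cd209a and Clec9a. The single cell of mouse 34 held Apoe at 3363 CPM, Atp6v0d2 at 1495 CPM and Mertk at 747 CPM, with Ly6c2 and Ccr2 at 0. In mouse 29, the cell with the most alveolar macrophage UMIs held 69 of 358. That cell also held 146 resident macrophage UMIs and no UMI of Ly6c2 or Ccr2. Further cells of mouse 29 without a UMI of Ly6c2 or Ccr2 held 43, 43, 43 and 38 alveolar macrophage UMIs. In the same order they held 124, 93, 191 and 129 resident macrophage UMIs. The last of them also held 569 of the 4199 hypoxia and tissue remodelling UMIs of mouse 29. All of these cells passed the monocyte gate.

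The gate passes cells near its limits. Only 6 monocytes held exactly 2 Lyz2 UMIs and 25 further cells fell out with 1. Csf1r was the tighter limit, since 83 monocytes held exactly 1 Csf1r UMI and 602 cells fell out with none. In the cells with 1 Csf1r UMI Ly6c2 stood at 1542 CPM and Chil3 at 5958 CPM, against 694 and 2018 CPM in the cells without one. A single C1q UMI removed 16 cells, which held Ly6c2 at 603 CPM, and a single Csf3r or Retnlg UMI removed 24 cells.

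Ly6c2 and Chil3 are shown by the 250 bases before their transcription start because both were higher in monocytes than in C1q-positive macrophages of all 5 mice compared below. The sequences are those of RefSeq for GRCm38.p6, on the minus strand and 5′ to 3′, at chr15:75111972-75112221 for Ly6c2 and chr3:106167565-106167814 for Chil3. Capitals mark GAGGAA, a core that transcription factor PU.1 can bind, searched on both strands. It was found in the Ly6c2 window, which belongs to the first of 2 RefSeq starts of that gene, and not in those of Chil3, Ccr2 and Ear2, whereas 23.1% of 27025 promoters of this length held it. The C/EBP palindrome TTGCGCAA was found in none of these 4 windows and in 0.17% of all promoters.
Ly6c2: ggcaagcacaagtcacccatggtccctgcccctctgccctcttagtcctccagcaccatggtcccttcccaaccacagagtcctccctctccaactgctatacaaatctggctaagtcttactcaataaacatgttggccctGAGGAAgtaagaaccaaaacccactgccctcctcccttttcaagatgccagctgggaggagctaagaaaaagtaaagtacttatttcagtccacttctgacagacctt
Chil3: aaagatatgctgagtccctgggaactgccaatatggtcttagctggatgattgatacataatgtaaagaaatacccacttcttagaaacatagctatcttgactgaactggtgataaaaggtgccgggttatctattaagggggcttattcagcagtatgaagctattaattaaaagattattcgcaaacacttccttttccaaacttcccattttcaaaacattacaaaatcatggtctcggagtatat

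Monocytes made up a small and uneven part of the nodules. Among the BCR mice they were 0.149% of cells for mouse 27 (14 of 9396), 0.497% for mouse 29 (70 of 14078), 0.141% for mouse 31 (16 of 11367), 0.0601% for mouse 33 (6 of 9984) and 0.0146% for mouse 34 (1 of 6869). The TCR mice gave 0.0668% for mouse 30 (7 of 10485) and 0.232% for mouse 32 (31 of 13369). The 95% Clopper-Pearson interval of mouse 29, 0.388% to 0.628%, lay above those of all other mice, the next highest being 0.158% to 0.329% in mouse 32. Intervals here cover counting error only. The mean share was 0.172% ± 0.19 in the BCR mice (SD, n = 5) and 0.149% ± 0.117 in the TCR mice (SD, n = 2). The groups overlapped, and the difference of -0.023 percentage points was smaller than the spread between mice (exact two-sided permutation test over 21 splits, p = 0.857). With 5 and 2 mice the smallest two-sided p is 0.0952.

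Set against C1q-positive macrophages of the same gate, which held at least 2 C1q UMIs in place of none, the order changed. The BCR mice held 60, 202, 116, 174 and 12 macrophages, listed as mice 27, 29, 31, 33 and 34, whereas mouse 30 held 0 and mouse 32 held 9. Monocytes were therefore 18.9%, 25.7%, 12.1%, 3.33% and 7.69% of both populations together in the 5 BCR mice, and 100% of 7 cells and 77.5% of 40 cells in the 2 TCR mice. The 2 TCR mice lay above every BCR mouse, with a mean of 88.8% ± 15.9 (SD, n = 2) against 13.6% ± 8.92 (SD, n = 5). This is the most extreme of the 21 splits, which gives the smallest p the design allows (exact two-sided permutation test, p = 0.0952). This ratio was chosen after the cell counts were seen, and it uses the C1q limit of the gate on both sides. Neutrophils, gated by Csf3r and Retnlg and by the absence of Csf1r, numbered 15, 1881, 13, 6, 17, 416 and 464 in mice 27, 29, 31, 33, 34, 30 and 32.

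**Figure D1:**
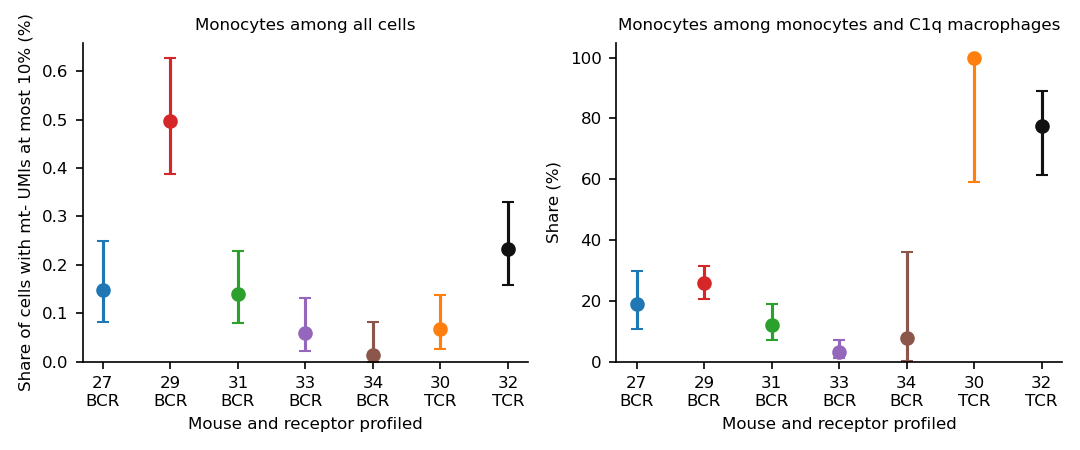
Left, monocytes as a share of all cells with at most 10% mt- UMIs; right, monocytes as a share of monocytes and C1q-positive macrophages. Points are single mice and bars are 95% Clopper-Pearson intervals; mouse 29 leads on the left with 0.497%, and mice 30 and 32 lead on the right with 100% and 77.5%.

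Levels of the 4 monocyte genes outside the gate varied over a wide range. Ly6c2 stood at 561, 510, 426 and 317 CPM for BCR mice 27, 29, 31 and 33 (40, 293, 46 and 15 UMIs), at 240 CPM for mouse 30 (13 UMIs) and at 3390 CPM for mouse 32 (1906 UMIs), with 0 UMIs from the 1 cell of mouse 34. Mouse 32 stood apart, with a 95% Poisson interval of 3239.5 to 3546 CPM, and the intervals of mice 27 (401 to 764) and 30 (128 to 411) overlapped those of mice 31 and 33. Ly6c2 was not particular to monocytes in mouse 32, where neutrophils held it at 1163 CPM and T cells at 102 CPM. Chil3 ran from 148 CPM (mouse 30) through 760.0 (mouse 33), 1514.5 (mouse 27), 1956 (mouse 31), 5603 (mouse 29) and 6919 (mouse 32) to 13824 CPM (mouse 34). Neutrophils of mice 29 and 32 also held Chil3, at 708 and 6021 CPM.

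Ccr2, the receptor for the monocyte-attracting chemokine CCL2, varied less, from 84.1 CPM in mouse 27 to 306 CPM in mouse 31 among the 6 mice with more than 1 monocyte. Between these ends lay mouse 32 with 92.5, mouse 33 with 106, mouse 30 with 148 and mouse 29 with 212 CPM. The intervals of neighbours in this order overlapped. Ear2 was low, at 0 to 74.2 CPM in mice 27, 29, 31, 33 and 32, and was higher only in mouse 30 (277 CPM, 15 UMIs from 1 cell) and in the cell of mouse 34 (934 CPM, 5 UMIs). The Ear2 value of mouse 30 is thus that of a single cell.

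**Figure D2:**
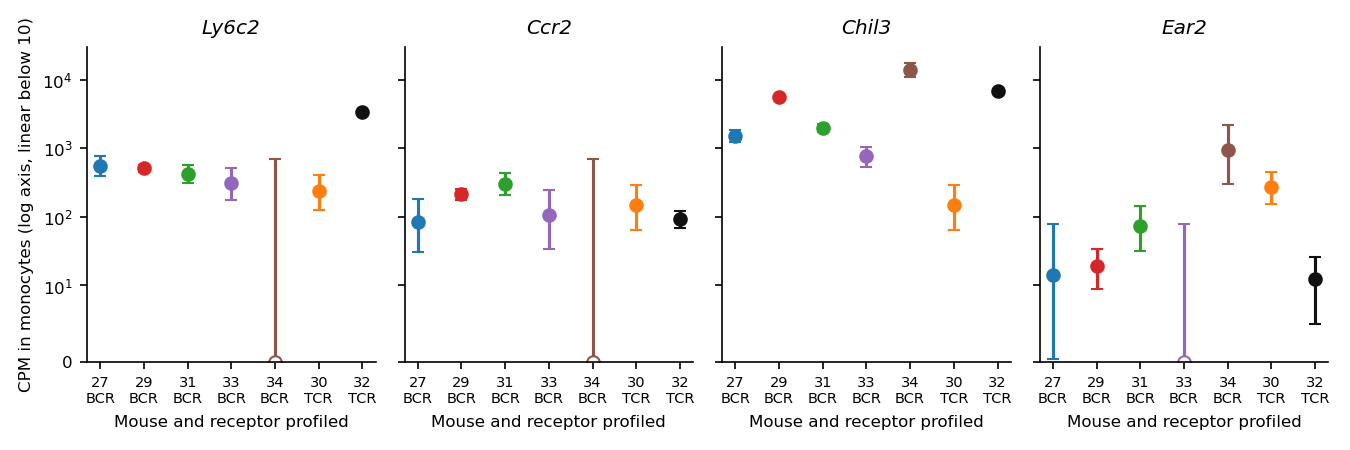
CPM of Ly6c2, Ccr2, Chil3 and Ear2 in the summed monocytes of each mouse, on a log axis that is linear below 10. Bars are 95% Poisson intervals and open circles mark a count of 0; Ly6c2 of mouse 32 (3390 CPM) lies above the other mice, and mouse 34 rests on 1 cell.

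The share of monocytes with a Ly6c2 UMI was 21.4% for mouse 27 (3 of 14), 57.1% for mouse 29 (40 of 70), 37.5% for mouse 31 (6 of 16), 50% for mouse 33 (3 of 6), 42.9% for mouse 30 (3 of 7) and 96.8% for mouse 32 (30 of 31). When each cell was thinned to 1000 UMIs, which evens out depth and left out 3 shallower cells, the expected shares were 20.5%, 26.2%, 22.2%, 22.7%, 17.6% and 74.5% in the same order. The 4 BCR mice and mouse 30 then lay within 17.6% to 26.2%, and mouse 32 alone was higher. The mean was 22.9% ± 2.38 in the BCR mice (SD, n = 4) and 46% ± 40.3 in the TCR mice (SD, n = 2), and the difference of 23.1 percentage points was smaller than the SD among TCR mice (exact permutation test, two-sided, over 15 splits, p = 0.667, smallest possible 0.133). Without mouse 32 the difference was -5.33 points. In B cells, which should lack these genes, Ly6c2 was found in 0.0972% to 3.23% of cells in the 6 other mice, at median depths of 3742 to 9404 UMIs. In mouse 32 only 20 cells passed the B cell gate, 17 of them (85.0%) with Ly6c2, and these held a median of 36434 UMIs and the neutrophil list at 16935 CPM, so they give no background there. T cells of mouse 32 held Ly6c2 in 10.8% at a median of 3780 UMIs.

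Summed levels of the 23 gene lists differed between the monocytes of different nodules. With 1 sample per mouse these differences between single mice have counting error only and no test. In mice 30 and 33, with 7 and 6 monocytes, single cells gave much of several sums. MHC class II genes, which present peptides to CD4 T cells, summed to 15238 to 22633 CPM in mice 27, 31 and 33, to 6893 CPM for mouse 30 and 3481 CPM for mouse 32, and to only 618 CPM for mouse 29. Cd74, the invariant chain, followed the same order at its ends, with 10559 CPM in mouse 27 and 296 CPM in mouse 29. The low value of mouse 29 rests on 70 cells, the most of any mouse, and without the cell with the most class II UMIs in each the sums were 340 CPM for mouse 29, 9462 for mouse 31 and 13422 for mouse 33. It was not particular to monocytes. C1q-positive macrophages of mouse 29 held the list at 2321 CPM, against 13331 to 29779 CPM in the other mice with macrophages. Its B cells held 2933 CPM, against 11486 to 21658 CPM in the other BCR mice. T cells and neutrophils of mouse 29 were not the lowest.

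Inflammatory cytokine genes summed to 14098 CPM for mouse 31 and 8634 CPM for mouse 33, but to 1473 CPM for mouse 32. Without its highest cell the sum of mouse 33 was 4316 CPM. Il1b, the gene of interleukin 1β, stood at 7054, 3357, 1977.5 and 1823 CPM for mice 31, 33, 30 and 27, and at 260 and 132 CPM for mice 32 and 29. Among mice with more than 1 monocyte, Il1b was thus lowest where the most monocytes were found. Mouse 29 was high instead for Cxcl2, a neutrophil-attracting chemokine, with 2987 CPM, while mouse 32 was at 114 CPM. The 3547 CPM of mouse 33 came from 1 cell but for 1 UMI.

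Genes of hypoxia and tissue remodelling summed to 7304 CPM in mouse 29 and to 1583 to 1991 CPM in the other BCR mice with more than 1 cell. Other cells of mouse 29 were high as well. Its C1q-positive macrophages held the list at 7994 CPM, against 1304 to 3295 CPM elsewhere, and its neutrophils at 5081 CPM, against 1411 to 2603 CPM. Its T cells were also the highest, at 2052 CPM, but its B cells, at 638 CPM, were not. Spp1, the gene of osteopontin, was at 1940 CPM in mouse 29 and between 0 and 18.5 CPM in the other 6 mice. Thbs1, the gene of thrombospondin 1, was at 3037 CPM in mouse 29 and at most 758 CPM elsewhere. Gpnmb, a gene of lipid-laden and matrix-degrading macrophages, was at 1409 CPM for mouse 29 and 795 CPM for mouse 30 but at 0 in mice 27 and 33. Vegfa, the gene of the vascular growth factor, was highest in mouse 30, with 2569 CPM against 21.1 to 379 CPM in the other 5 mice with more than 1 monocyte. In mouse 30, a single cell gave 40 of 43 Gpnmb UMIs and a single cell 106 of 139 Vegfa UMIs.

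The 9 early response and heat shock genes summed to 30578 CPM for mouse 31 and 46276 CPM for mouse 30, against 6288 to 9527 CPM in the other mice. Atf3, a stress-induced transcription factor, reached 20883 CPM in mouse 30, and Fos 12012 CPM in mouse 31. These genes can be induced by tissue dissociation, and C1q-positive macrophages of mouse 31 held the list at 19310 CPM and neutrophils of mice 31 and 30 at 27881 and 24211 CPM, so the other myeloid cells of these libraries were high as well. Macrophages of mouse 29 held it at 18800 CPM, above the 6288 CPM of its monocytes. The part of dissociation in these levels was not tested. Chemokine and chemokine receptor genes followed with 10682 CPM for mouse 30 and 6803 CPM for mouse 31, of which Ccl4 took 7115 and 4032 CPM. Without its highest cell mouse 30 stood at 6679 CPM for the list.

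Interferon response genes differed between mice, with much of the difference in single cells. Type I response genes summed to 4307, 3548 and 3337 CPM for mice 33, 30 and 31, and to 484 to 729 CPM in mice 27, 29 and 32. Without the highest cell of each, mouse 33 stood at 2145 CPM and mouse 30 at 986 CPM. Rsad2, which encodes the antiviral protein viperin, was at 1562 CPM in mouse 33, with 59 of 74 UMIs in 1 cell. Interferon γ response genes summed to 6017 CPM in mouse 33 and to 390 CPM in mouse 29. Cxcl9, a T cell-attracting chemokine, was at 950 CPM in mouse 33, with 36 of 45 UMIs in 1 of 6 cells, and at 148 CPM in mouse 32. IL-4 response genes were low in all mice, at 0 to 253 CPM, with Arg1 between 0 and 67.8 CPM and Retnla between 0 and 3.48 CPM. Genes of costimulation and adhesion summed to 638 to 4307 CPM, and Cd86 was highest in mouse 33, with 2744 CPM and 68 of 130 UMIs in 1 cell.

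Proliferation genes summed to 1062 CPM for mouse 32 and 503 CPM for mouse 29, against 0 to 168 CPM in the other mice. At least 3 UMIs of these genes were found in 27 monocytes, of which 17 were from mouse 32 and 8 from mouse 29. Mki67 stood at 311 CPM for mouse 32 and 99.2 CPM for mouse 29. Neutrophil-gated cells of mouse 32 held the list at 1464 CPM, and the monocytes of mouse 32 were also the deepest.

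Eif3e, the gene floxed in these mice, was detected in monocytes of 6 mice, at 154, 136, 83.4 and 106 CPM for BCR mice 27, 29, 31 and 33, 92.4 CPM for mouse 30 and 205 CPM for mouse 32. T cells of the same libraries held 109 to 166 CPM, within the range of the monocytes. The counts in monocytes were 5 to 115 UMIs, and the 1 cell of mouse 34 held none, below a floor of 560 CPM.

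**Figure D3:**
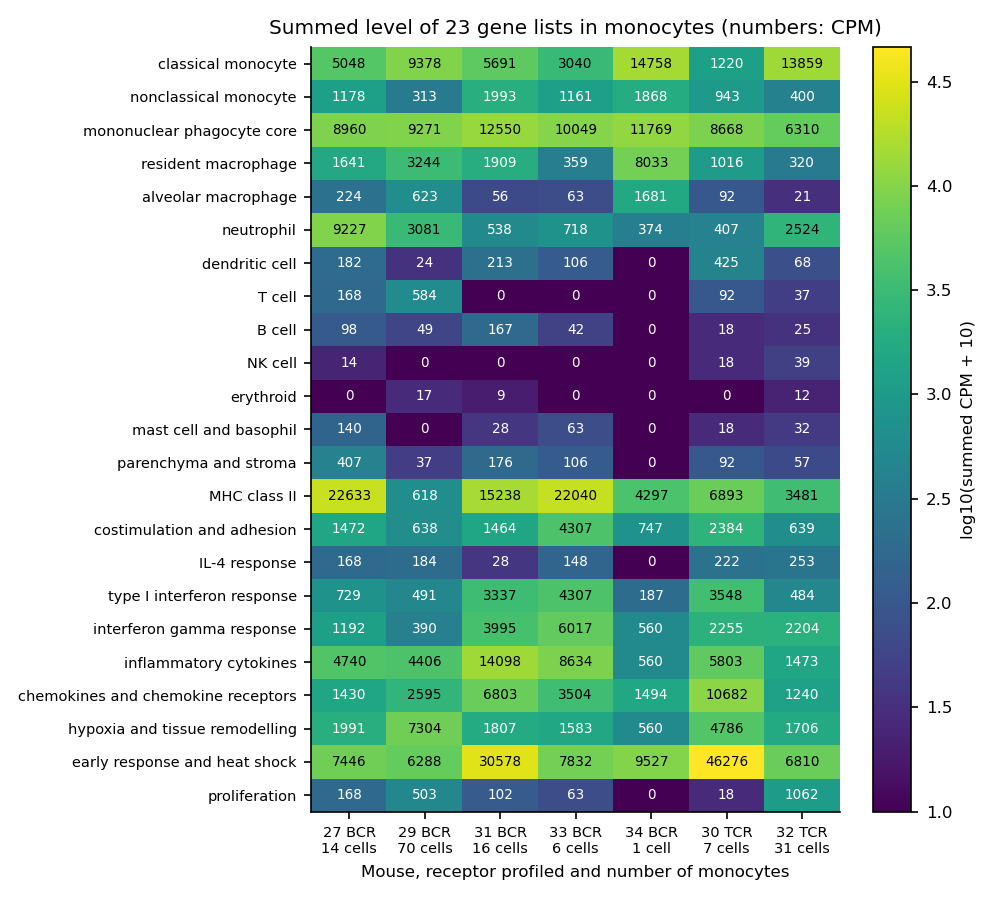
Summed CPM of the 23 gene lists in the monocytes of each mouse, with the value in each field and the color on a log10 scale. Mouse 29 is low for MHC class II (618 CPM) and high for hypoxia and tissue remodelling (7304 CPM), and mice 31 and 30 are high for early response and heat shock genes.

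Single monocytes differed widely in MHC class II and in classical monocyte transcripts. Of the 145 cells, 28 held at least 50 MHC class II UMIs per 10000, a limit set after the values were seen, and 6 cells lay within a factor of 1.5 of it. These 28 cells held a median of 18.8 classical list UMIs per 10000, against 97.7 in the other 117, at median depths of 8891.5 and 7158 UMIs. The lower classical level in MHC class II-rich cells held in mice 27, 29, 31, 30 and 32 and not in mouse 33, where 5 of 6 cells were MHC class II-rich. In mouse 29 this compares 2 cells with 68, and Spearman's rho between both levels over cells was 0.05 in mouse 29 (70 cells) and -0.29 in mouse 32 (31 cells). Ly6c2 was found in 10 of the 28 MHC class II-rich cells and 75 of the other 117. It was found in 0 of 6 such cells in mouse 27 and 0 of 6 in mouse 31, but in 5 of 6 in mouse 32 and 3 of 5 in mouse 33. Markers of another cell type moved with class II, since 9 of the 28 cells and 0 of the other 117 held at least 3 UMIs of the dendritic cell list. Without these 9 cells the classical median of the MHC class II-rich cells was 22.5 per 10000. MHC class II-rich cells were 2 of 70 in mouse 29, 6 of 31 in mouse 32 and 3 of 7 in mouse 30.

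**Figure D4:**
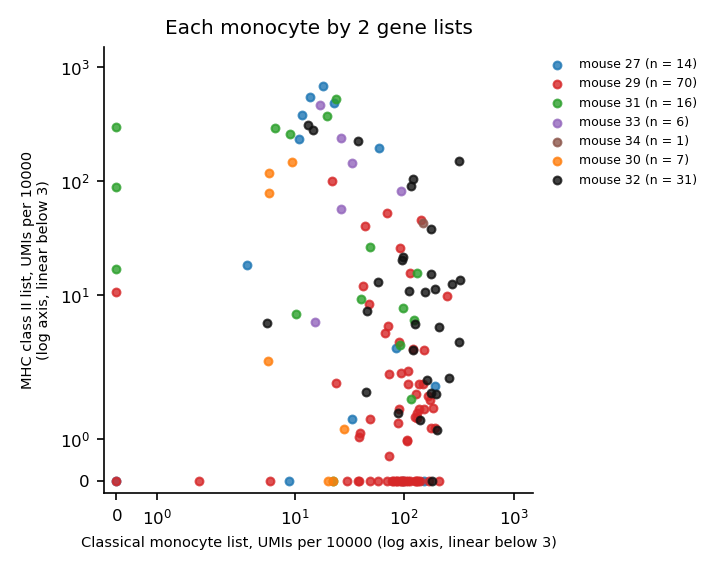
Each point is 1 monocyte, colored by mouse, with classical monocyte list UMIs (x) and MHC class II list UMIs (y) per 10000 UMIs of the cell, on log axes that are linear below 3. Most cells of mouse 29 lie at the lower right, and cells of mice 27, 31 and 33 make up most of the group with much MHC class II.

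Ly6c2-positive and Ly6c2-negative monocytes of the same mouse were then compared in mice 27, 29, 31, 33 and 30. No gene passed the threshold among 551 tested (0.0% called; edgeR quasi-likelihood test with Benjamini-Hochberg adjustment), and 40 did at an unadjusted p under 0.05, while DESeq2 called 9. Of these, H2-Ab1, Cd74, Rgs1, Rasgef1b and Peli1 were lower in Ly6c2-positive cells, and Vim, Thbs1, Gda and Ly6c2, which made the split, were higher. MHC class II genes had the largest differences among the lists, with a median log2 difference of -2.70 over the 4 tested members against 0.01 over all genes. In these mice every cell with at least 3 dendritic cell list UMIs was Ly6c2-negative. Such a cell held 576 of 1044 class II UMIs in mouse 33 and 762 of 1644 in mouse 31. Their part in the difference was not tested. Positive sums held 3 cells in mice 27, 33 and 30, and negative sums 3 in mouse 33 and 4 in mouse 30. H2-Ab1, which encodes the β chain of the class II molecule I-A, stood at 0, 8.51, 39.9, 1967 and 446 CPM in Ly6c2-positive cells of mice 27, 29, 31, 33 and 30, and at 3412, 153, 3688, 3916 and 1057 CPM in Ly6c2-negative cells. It was lower in the positive cells of all 5 mice, with a log2 difference of -3.19 ± 0.98 (SE) that did not pass (edgeR adjusted p = 0.526) and passed with DESeq2 (adjusted p = 0.0388). After Ly6c2 itself, the smallest p-values were those of Bcl2a1b, a survival gene of the Bcl2 family (-3.45 ± 0.72, edgeR adjusted p = 0.314), Rasgef1b (-1.93 ± 0.43), Peli1, a ubiquitin ligase of Toll-like receptor signalling (-1.54 ± 0.35), and, with higher values in positive cells, Cebpb, a myeloid transcription factor (1.07 ± 0.30), and Cd44, a hyaluronan receptor (0.97 ± 0.27). Each of these 5 genes had the same direction in 5 of 5 mice.

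Between TCR and BCR mice no monocyte gene passed the threshold among 1890 tested (0.0% called; edgeR quasi-likelihood test), with 76 genes at an unadjusted p under 0.05 and 2 called by DESeq2, Osm and Camk1d. The comparison held the 2 TCR mice and BCR mice 27, 29, 31 and 33. The smallest p-values were those of Osm, Camk1d, Gngt2, Mmp12 and C5ar1 (all edgeR adjusted p = 0.997). Osm, the gene of the cytokine oncostatin M, stood at 1349 CPM for mouse 30 and 153 CPM for mouse 32, against 42.1, 60.9, 74.2 and 127 CPM in mice 27, 29, 31 and 33. The groups did not overlap, but most of the mean of the TCR mice came from the 7 cells of mouse 30. C5ar1, the receptor for complement fragment C5a, was at 0 and 30.2 CPM in mice 30 and 32 and at 112 to 204 CPM in the 4 BCR mice. Mmp12, a macrophage elastase, had no UMI in mice 30, 32 and 33. Without mouse 32, which leaves mouse 30 alone in its group and assumes that it varies like the others, 4 genes were called, Osm, Camk1d, Tnip3 and Lsmem1.

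Monocytes differed from C1q-positive macrophages of the same nodule in classical monocyte genes, which were higher, and in resident macrophage genes, which were lower. In mice 27, 29, 31, 33 and 32, with the mouse as a block, 223 of 5201 genes passed (4.29% called; edgeR quasi-likelihood test), 82 higher and 141 lower in monocytes (1.58% and 2.71%). Of these, 3 were genes of the gate. The cells were parted by C1q UMIs, so genes that go with C1q were parted with them, and the test says how regularly they did so over the 5 mice.

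Of the 11 classical monocyte genes, 8 were higher in monocytes and none lower, with a median log2 difference of 2.44 against -0.02 over all genes. Ly6c2 was at 561, 510, 426, 317 and 3390 CPM in monocytes of mice 27, 29, 31, 33 and 32 and at 0, 2.36, 93.4, 8.43 and 304 CPM in their macrophages (log2 difference 4.46 ± 0.66 (SE), edgeR adjusted p = 0.00175). It was higher in monocytes of every mouse, and mouse 32 had the highest level in both populations. Plac8, a gene of inflammatory leukocytes, was at 433 to 1374 CPM in monocytes and 2.36 to 238 CPM in macrophages, without overlap (3.53 ± 0.55, edgeR adjusted p = 0.00254). Chil3 was 2.39 ± 0.49 higher on the log2 scale (edgeR adjusted p = 0.0128), although macrophages of mouse 32 held it at 5346 CPM. Hp, Vcan, Fn1, F13a1 and Ms4a4c, which encode haptoglobin, versican, fibronectin, a coagulation factor and a membrane protein of the MS4A family, also rose. Fn1 and F13a1 did so in 4 of 5 mice and the others in all 5. Ccr2 did not pass (1.13 ± 0.70, edgeR adjusted p = 0.483), being lower in monocytes than in macrophages of mouse 32.

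Of 5 nonclassical genes tested 1 passed, Pglyrp1, a peptidoglycan recognition protein that neutrophils also make (4.64 ± 0.79, edgeR adjusted p = 0.00387). All 4 tested neutrophil-list genes were called higher in monocytes, S100a8, S100a9, Lcn2 and Il1r2, with a median of 4.10. S100a8 was higher in 5 of 5 mice, S100a9 and Il1r2 in 4 and Lcn2 in 3. S100a8 was at 3057, 1774, 139, 21.1 and 1099 CPM in monocytes and at 8.70, 74.1, 12.9, 16.9 and 114 CPM in macrophages of mice 27, 29, 31, 33 and 32. The values lay apart in mice 27, 29, 31 and 32 and close together in mouse 33. In mouse 27, 1 of 14 cells gave 184 of the 218 S100a8 UMIs and 547 of the 658 neutrophil-list UMIs, without which the list fell from 9227 to 1679 CPM. In mouse 31, 1 of 16 cells gave 48 of 58 neutrophil-list UMIs. S100a8 and S100a9 are calprotectin genes of both neutrophils and classical monocytes. Over all 11 neutrophil-list genes the summed level in monocytes was 374 to 9227 CPM and in neutrophils 77751 to 201560 CPM, with Ly6g and Mmp9 at 0 in monocytes and Camp at 0 to 10.7 CPM. The part of neutrophil RNA in these differences was not tested. Among genes outside the lists, Ifitm6 (3.74 ± 0.44), Itgb7, an integrin chain (3.45 ± 0.47), Plcb1, a phospholipase (3.22 ± 0.40), Ceacam1, an adhesion molecule (2.81 ± 0.41), and Gpr141 (2.78 ± 0.52) were among the 10 largest increases, each in 5 of 5 mice. Il1b was higher in monocytes of all 5 mice (1.69 ± 0.37, edgeR adjusted p = 0.018), and it was the 1 inflammatory gene of 10 that passed.

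Of 10 tested resident macrophage genes 7 were lower in monocytes and none higher, with a median of -2.64. Apoe, the lipid carrier apolipoprotein E, was at 771, 951, 1585, 84.4 and 96.0 CPM in monocytes and at 12019, 13552, 9241, 4105 and 818 CPM in macrophages of mice 27, 29, 31, 33 and 32 (-3.76 ± 0.35, edgeR adjusted p = 2.41e-05). The fall held within each mouse, while macrophages of mouse 32 held less Apoe than monocytes of mice 29 and 31. Mertk, a receptor for engulfment of apoptotic cells, fell by 3.12 on the log2 scale. Selenop, a selenium transport protein (-2.83), Vcam1 (-2.98), Gpnmb (-2.45), Hmox1, a heme oxygenase (-1.75), and Mrc1, the mannose receptor (-3.20), fell too, Mrc1 in 4 of 5 mice. Atp6v0d2, of the alveolar macrophage list (2 tested), fell as well (-2.34), while the 1 gene tested of each of the dendritic cell, T cell and parenchyma lists did not pass. Outside the list, the largest decreases included Frmd4b (-4.71 ± 0.40), Timp2, a metalloproteinase inhibitor (-4.05 ± 0.36), Ms4a7 (-4.02 ± 0.52), Il18bp, an interleukin 18 decoy (-3.97 ± 0.51), Cd63, a lysosomal tetraspanin (-3.70 ± 0.43), Igf1, a growth factor (-3.50 ± 0.61), Acp5, a lysosomal phosphatase (-3.48 ± 0.42), and Zmynd15 (-3.43 ± 0.62), each in 5 of 5 mice. Pla2g2d, a secreted phospholipase, had no UMI in monocytes of these mice and a mean of 127 CPM in macrophages (edgeR adjusted p = 5.03e-04).

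Genes shared by mononuclear phagocytes differed less as a list, with a median of -0.18 against -0.02 over all genes. Of 20 such genes, 4 were lower in monocytes, where 2.71% of all genes were, and none was higher. Among the 4 were the protease gene Ctss (-1.78 ± 0.24), Cd68 and Irf8. Tyrobp, the adaptor of many myeloid receptors, stood at 1298 to 3096 CPM in monocytes and 1360 to 3083 CPM in macrophages (-0.21 ± 0.21). Cxcl16 and Ccl5 were the 2 of 11 chemokine genes that fell, and Arg1 the 1 of 3 IL-4 response genes. Trem1, an amplifier of inflammatory signals, rose and Ctsl, a cathepsin, fell among 9 tested genes of hypoxia and tissue remodelling, each in 4 of 5 mice. Bst2 was the 1 of 8 type I interferon genes that passed, with a lower value in 4 of 5 mice. No gene of MHC class II (6 tested), costimulation (6), interferon γ response (9), early response (9) or proliferation (3) passed. The MHC class II median was -1.03, and Cd74 was lower in monocytes of mice 29, 31 and 32 but not of mice 27 and 33 (-1.16 ± 0.36, edgeR adjusted p = 0.0911). Genes called numbered 135 without mouse 27, 67 without mouse 29 and 136 without mouse 31, and 13 when the mouse was not a block.

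**Figure D5:**
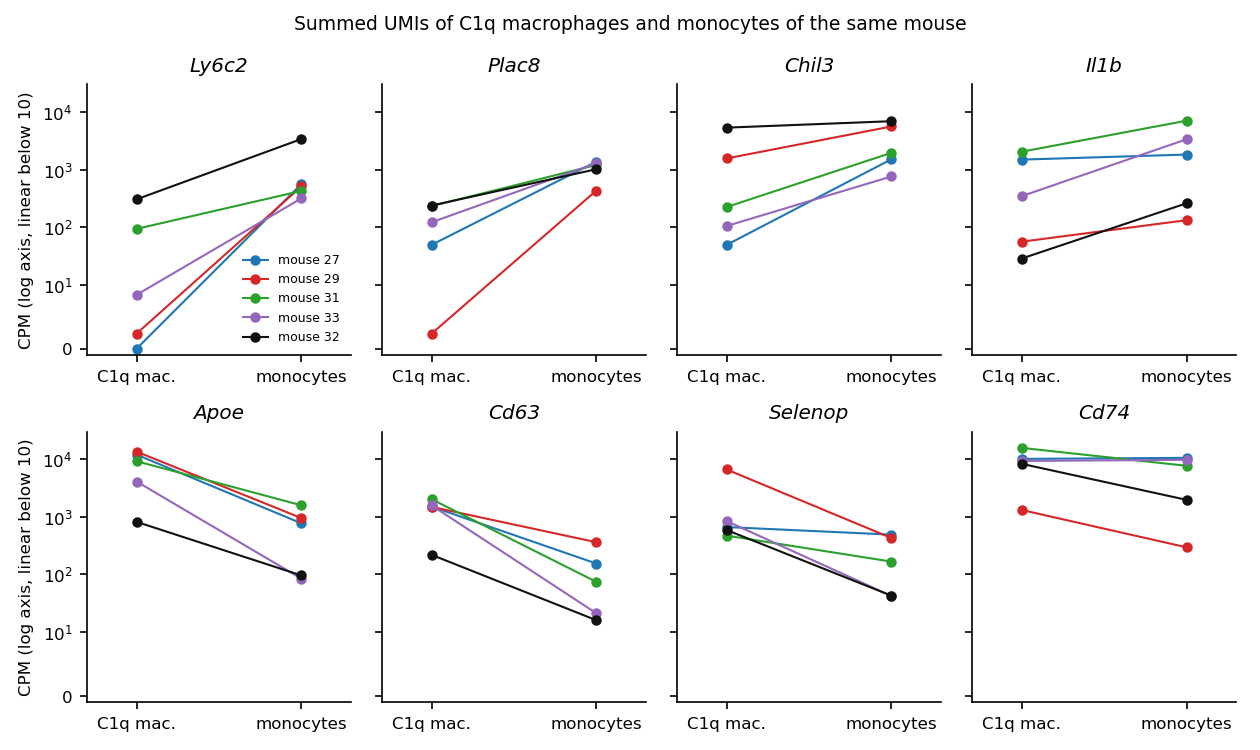
CPM of 8 genes in C1q-positive macrophages (left) and monocytes (right) of the same mouse, joined by a line, on a log axis that is linear below 10. Ly6c2, Plac8, Chil3 and Il1b are higher and Apoe, Cd63 and Selenop lower in monocytes of all 5 mice, whereas Cd74 moves in both directions.

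Against neutrophils of the same nodule, monocytes held more of the 2 MHC class II genes tested and less of the neutrophil genes. In mice 27, 29, 31, 33, 30 and 32, 453 of 1296 genes passed (35.0% called; edgeR quasi-likelihood test), 255 higher and 198 lower in monocytes (19.7% and 15.3%), of which 1 was a gene of the gate. The cells were parted by Csf3r and Retnlg, by Csf1r, which neutrophils had to lack, and by Lyz2, which only monocytes had to hold. Genes that go with any of these were parted with them, and the test says how regularly they did so over the 6 mice. The 2 MHC class II genes tested were both higher. H2-Aa, the α chain of I-A, stood at 5469, 78.3, 3040, 4666, 1016 and 534 CPM in monocytes and at 133, 34.4, 38.3, 0, 8.15 and 12.0 CPM in neutrophils of these mice (5.33 ± 0.79, edgeR adjusted p = 3.89e-04), and Cd74 behaved alike (5.15 ± 0.68). Even the low class II levels of monocytes of mouse 29 thus lay above those of its neutrophils. Its class II list stood at 618 CPM in monocytes, or 340 CPM without the highest cell, against 201 CPM in neutrophils. Of its 70 monocytes, 41 held a class II UMI. T cells of mouse 29 held the list at 389 CPM, above the 340 CPM of its monocytes without that cell. Its neutrophils were also shallower, with a median of 2161 UMIs per cell against 6470 in its monocytes. The part of background in the low class II levels of mouse 29 was not tested. Cd86, a costimulatory ligand of CD28, rose by 4.03 ± 0.50. S100a4, Ifi30, a lysosomal thiol reductase of antigen processing, Crip1, Ifi207, Ctss and Ahnak were also among the 10 largest increases.

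All 8 tested neutrophil-list genes were lower in monocytes, with a median of -6.57. Camp, the gene of the antimicrobial peptide cathelicidin, was at 0 to 10.7 CPM in monocytes and 1877 to 19132 CPM in neutrophils (-10.55 ± 0.64, edgeR adjusted p = 2.70e-07). Ngp (-8.68), Ltf (-7.89), S100a9 (-7.04) and S100a8 (-6.10) fell likewise, and Asprv1, Cstdc4, Stfa2l1, G0s2 and Slfn4 completed the 10 largest decreases. The monocyte lists did not part the populations in this way. Of 6 classical genes tested 1, Plac8, rose (1.66 ± 0.34) and 1, Hp, fell, whereas Ly6c2 (1.04 ± 0.53, edgeR adjusted p = 0.147) and Chil3 (0.17 ± 0.83, edgeR adjusted p = 0.898) did not pass, and of 2 nonclassical genes Pglyrp1 fell. Of 13 tested phagocyte core genes 4 rose, among them Zeb2, Csf2rb and Ctss, and Cebpb fell. Cxcl2 and Nfkbia fell among 8 inflammatory genes, Junb and Egr1 among 9 early response genes, and Thbs1 and Tgfb1 rose and Trem1 fell among 7 genes of hypoxia and tissue remodelling. Hp, Cebpb, Cxcl2, Egr1 and the neutrophil-list gene Il1r2 fell in 5 of 6 mice. Over all 1296 genes tested 35.0% were called. The counts of the classical, nonclassical, core, inflammatory, early response and hypoxia lists are therefore not read as results about these lists. The count of called genes was 859, 281, 712 and 789 without mice 27, 29, 31 and 33 and 214 without the mouse as a block. In mice 27, 31 and 33 only 6 to 15 neutrophils were summed, and 4043 to 4159 genes could be tested when 1 of them was left out.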

How the data were processed

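The authors deposited raw UMI counts per gene and cell (32285 genes, GRCm38/mm10 per the processing notes) and V(D)J contigs with UMI counts. The aligner, annotation and rule for calling cells are not given in the sources used here. The labels name a 5′ kit and the methods a 3′ kit, so which transcript end was counted was not settled. Deposited cells held at least 500 UMIs, and the 10% mt- limit is the study's. Libraries held 19264039 to 123456962 UMIs. Groups follow the receptor in the V(D)J labels. No doublet caller was run. Intervals and the floor of 3 counts cover counting error only.

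UMIs were summed per mouse and population and tested with edgeR's quasi-likelihood test (TMM, filterByExpr, Benjamini-Hochberg adjustment, adjusted p under 0.05), checked on simulated data. Log2 differences are fitted values with SE. The mouse was the block in paired tests because both sums come from 1 animal and library, and their deviations correlated in every mouse (0.127 to 0.645). A planned minimum of 20 cells per sum left too few mice, so it was lowered to 3 after the cell counts were seen. Thinned shares are averages over all draws. Macrophages and neutrophils were gated with at least 2 UMIs of C1q genes, or of Csf3r and Retnlg, and B and T cells with at least 2 UMIs of their gate genes. Neutrophils also had to hold no UMI of Csf1r, the C1q genes or the T and B cell gate genes, with no limit on Lyz2. Besides the members of the 23 lists, the genes named are the 10 per direction with the largest difference among called genes with the same direction in every mouse and at least 20 CPM, or the 5 with the smallest p where under 10 were called. Gene levels of single cells and the ratio of monocytes to macrophages were described after values were seen. The members and lists were chosen with earlier results of these data known. Alternatives were DESeq2, RLE factors, no low-count filter, no block, stricter gates, deeper cells and leaving out each mouse. R 4.3.3, edgeR 4.0.16, DESeq2 1.42.0, Python 3.11.15 and scipy 1.17.1 were used. Some genes that the rule would name are not reported here. List levels without the cell with the most UMIs of the list were computed after values were seen.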

Additional observations from a re-analysis of the deposited data

Results flagged for a closer look

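In 30 groups of 4 or 5 mice examined, 4 values stood apart from the others of their group by Dixon's criterion, where chance alone gives about 1 group in 20. The share of monocytes among cells was 0.497% in BCR mouse 29, and the next of the 5 BCR mice was at 0.149%. The hypoxia and tissue remodelling genes summed to 7304 CPM in monocytes of the same mouse, against 1991 CPM in the next of the 4 BCR mice with at least 3 monocytes. Macrophages, neutrophils and T cells of that mouse were also the highest for this list. The early response and heat shock genes summed to 30578 CPM in monocytes of mouse 31, with 7832 CPM next. Natural killer cell genes summed to 14.0 CPM in monocytes of mouse 27 and to 0 in the other 3, a value that rests on 1 UMI.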

How the results depend on the processing

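The planned minimum of 20 cells per sum was lowered to 3 after the cell counts were seen. The difference in monocyte share between TCR and BCR mice turned to 0.0916 percentage points without cells that had a V(D)J call or a TCR UMI, to 0.0582 without mouse 29 and to 0.0596 without mouse 30, and ranged from -0.106 to 0.0596 when mice were left out in turn. The difference in the Ly6c2-positive share ranged from -5.33 (without mouse 32) to 51.6 points, and that in monocytes among monocytes and macrophages from 63.9 to 86.4 points when mice were left out and 59.8 points with the stricter gate. Without the filter on low counts 46, 498, 1356 and 38 genes were called for TCR against BCR mice, macrophages, neutrophils and the Ly6c2 split. DESeq2 called 2 and 9 genes for the first and the last. Without the mouse as a replicate block 13, 214 and 1 genes were called against macrophages, neutrophils and in the Ly6c2 split. The stricter gate, with 5 Lyz2 and 2 Csf1r UMIs, gave 101 against macrophages and 7 in the Ly6c2 split, and turned the difference of Camk1d between TCR and BCR mice to -0.45. Sums of at least 10 cells, chosen after seeing the data, gave 726 against neutrophils. Leaving out each mouse gave 0 to 4, 67 to 226, 281 to 859 and 0 to 1 genes in the same order of comparisons. The cause of these changes was not tested. Of the genes named, 6 of 46 against macrophages and 24 of 36 against neutrophils kept their direction and call under every alternative in which they were tested. Not every gene was tested in each. Without the mouse as a block, 40 of the 46 lost their call. Few cells limit every value, with 1 to 70 monocytes per mouse.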
